A study of Mus musculus with 12 samples.

Results

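The 33 genes described here are those of the red cell lineage that encode its transcription factors, its receptors for erythropoietin and transferrin, the skeleton and surface proteins of the red cell membrane, and enzymes and other proteins of red cell maturation. They were chosen by name as erythroid genes, with earlier results of these data known. Each was read through the probe set whose annotation gives that single symbol and which has the highest mean over the arrays. All 33 were found among 19938 genes measured in mouse spleen. Tmod1 was the 1 member with more than 1 such probe set.

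Red cells arise from progenitors that divide under erythropoietin and then, under transcription factors led by Gata1 and Klf1, load their membrane with transporters, Rh proteins and a spectrin skeleton, fill with hemoglobin and expel the nucleus. In the mouse the spleen is a site of red cell formation next to the bone marrow, and its red pulp expands when the demand for red cells grows. Mature red cells carry little RNA, so these transcripts mark mainly erythroblasts and reticulocytes. In a bulk tissue, fewer cells of a type and less RNA per cell cannot be told apart.

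The 12 arrays carry 3 labels of 4 arrays each, all from C57BL/6 mice. The first label is TLR-deficient mice (the titles name Trif and myd, adaptors of the Toll-like receptors that sense microbes) with colon ascendens stent peritonitis, in which a stent lets gut bacteria into the abdomen, called septic TLR-deficient here. The second is wildtype mice with the same operation, called septic wildtype, and the third is untreated wildtype mice, whose titles give time 0. No array holds spleen of untreated TLR-deficient mice, the labels used here give neither an allele, age or sex nor a time after the operation, and the extract protocol opens with a sentence on Shh mutants that matches no group. Titles number the arrays M5 to M16, and by that number M5 to M8 are septic TLR-deficient replicates 1 to 4, M9 to M12 septic wildtype replicates 1 to 4 and M13 to M16 untreated replicates 1 to 4. The titles call them biological replicates, and as nothing names the animals, p-values measure the spread between these arrays.

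Values are log2 intensities as the authors summarised them, so a difference of 1 is a doubling, and levels are not compared between genes. Over all genes, M10 stood apart, with a Pearson's r of 0.765 to 0.809 to the other arrays, which correlated with each other at 0.956 to 0.991, and with an SD over genes of 1.21 against 1.91 to 2.07. Only 5 of the 12 arrays were most like an array of their own label, and M8 was most like M9, M12 most like M13 and M16 most like M5. Every mean by label below takes the labels as given, and whether those of single arrays are right was not tested. Xist, the RNA of the inactive X chromosome in females, lay between 3.73 and 4.33 on M12 to M15 and between 8.94 and 10.94 on the other 8 arrays, so its level divided both wildtype labels. Myd88, which encodes the adaptor named in the titles, lay between 8.62 and 9.75 on all arrays but M10, where it was 6.48, and Ticam1, which encodes Trif, lay between 5.80 and 5.93 on M5 to M8 and between 5.64 and 6.57 on the others. The labels used here give no deleted part, so whether these probe sets could show it is not known. Spleen cells other than erythroid ones were read at levels well inside the range of the table: the mean over 4 B cell markers lay between 8.72 and 10.59 on every array.

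The erythroid genes were high or low together, most of all on 3 single arrays that carry 3 different labels. M9, labelled septic wildtype, and M16, labelled untreated, held the lowest values: M16 was the lowest of the 12 arrays for 16 of the 33 genes (10.9% of all genes) and M9 for 12 (2.80% of all genes). In 24 of the 33 genes these arrays were the pair of lowest, a count not made over all genes. M7, labelled septic TLR-deficient, was the highest for 16 (5.51% of all genes) and among the 3 highest for 30, also not counted over all genes. M10 alone was lowest for 35.3% and highest for 40.5% of all genes, which leaves smaller shares to the other arrays. Within its own label M16 was lowest for 28 of the 33 genes (37.1% of all genes). M9, whose label includes M10, was lowest there for 27 (11.7%), and M7 was highest in its label for 22 (26.4%).

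**Figure D1:**
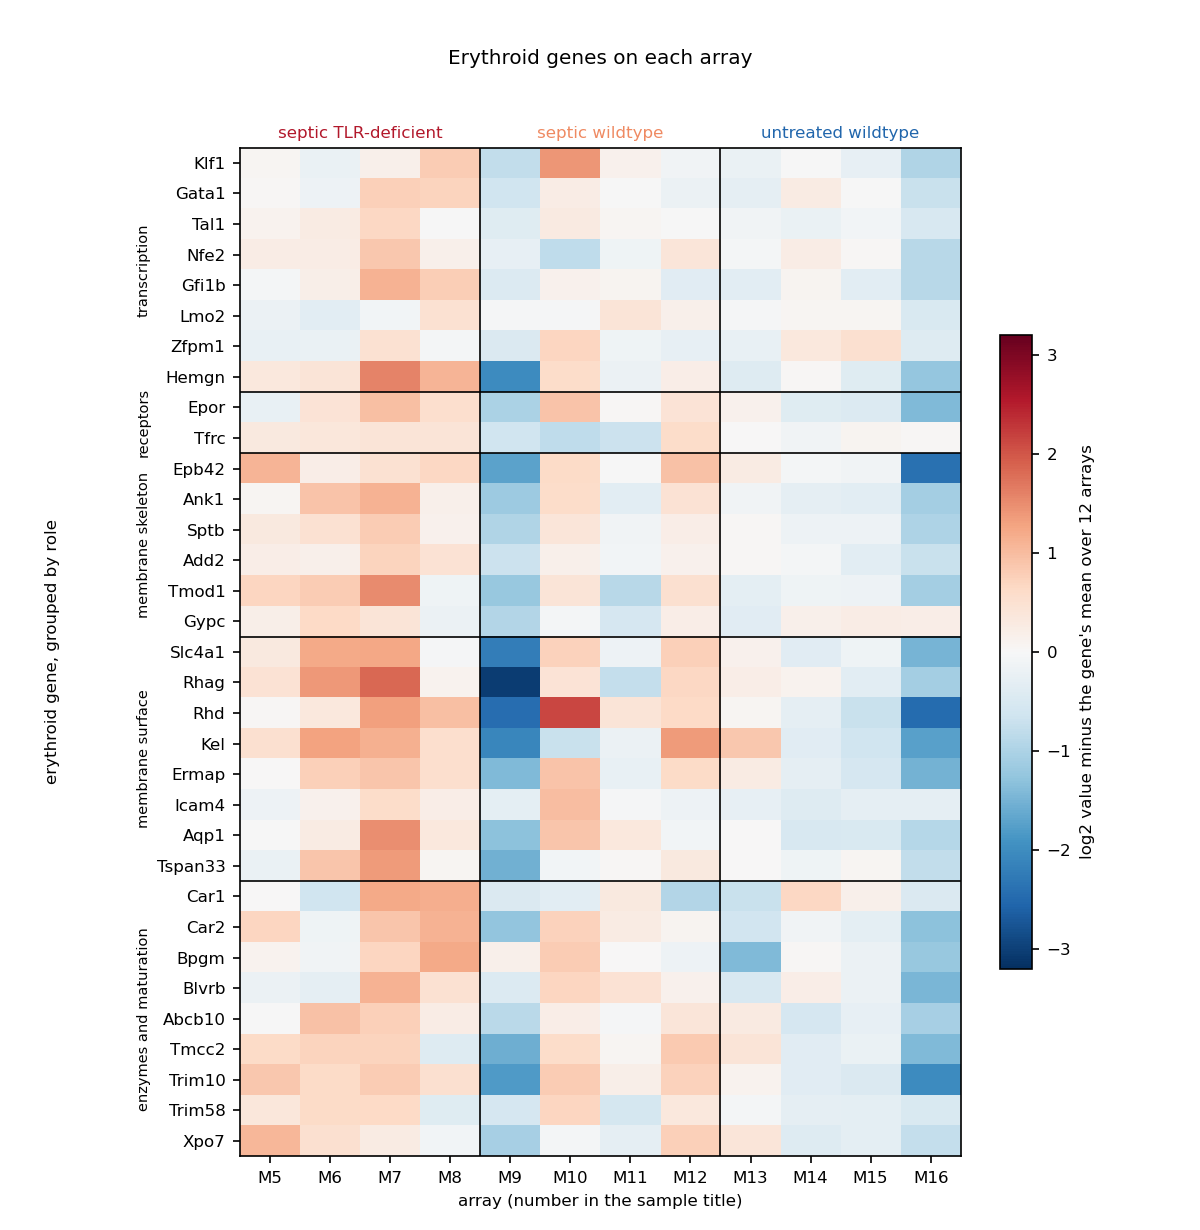
Log2 value of each of the 33 erythroid genes (rows, grouped by role) on each of the 12 arrays (columns, by the number in the title and the label), shown as the deviation from the mean of that gene. The columns M9 and M16 are blue for nearly every gene, and M7 is red for nearly every gene.

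To put 1 value on each array, each gene's mean over the 12 arrays was subtracted and the median over the 33 genes was taken. This median deviation was 0.12, 0.37, 0.82 and 0.42 on M5 to M8, -0.96, 0.58, -0.03 and 0.31 on M9 to M12, and -0.03, -0.15, -0.26 and -0.98 on M13 to M16. All 4 septic TLR-deficient arrays were above 0 and all 4 untreated arrays below it, while the septic wildtype arrays spanned nearly the whole range. On M9, 32 of the 33 genes were below their own mean, all but Bpgm, and on M16 31 were, all but Tfrc and Gypc. On M7, 32 were above it, all but Lmo2. Over all genes the median deviation was 0.03 on M9, -0.09 on M16 and -0.03 on M7.

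The distance between M7 and M9 had a median of 1.66 over the 33 genes, which is 3.16-fold, and ran from -0.07 for Lmo2 to 4.87 for Rhag. Over all genes the same difference had a median of -0.05.

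These extremes also separated arrays that were alike over the whole table. M8, labelled septic TLR-deficient, and M9, labelled septic wildtype, correlated at 0.990 over all genes, and each was the array most like the other. All 33 erythroid genes were nonetheless higher on M8 (47.3% of all genes), by a median of 1.23 (2.35-fold) and by up to 3.39 for Rhd. Of the 33 genes, 24 were higher on M8 by more than 1, against 0.627% of all genes. Of the 33 genes of the whole table that were higher on M8 by the most, 14 were members. Other genes differed in this pair as well: the median deviation of 14 cell division genes was 0.35 on M8 and -0.67 on M9.

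The second such pair was M5, labelled septic TLR-deficient, and M16, labelled untreated, which correlated at 0.985. Here 32 of 33 erythroid genes were higher on M5 (57.1% of all genes), by a median of 1.15, with 20 of them past 1 (1.19% of all genes). Gypc, at -0.01, was the exception. The median deviation was also lower on M16 for 10 genes of heme synthesis and iron import, at 0.03 on M5 against -1.0, and for 6 neutrophil genes, at 0.10 against -1.08. Not every such pair split widely. M12, labelled septic wildtype, and M13, labelled untreated, correlated at 0.986. Of the 33 genes 29 were higher on M12 (42.4% of all genes), by a median of 0.41, but only 1, Bpgm, by more than 1 (0.637% of all genes). M14 and M15, both labelled untreated, correlated at 0.991. The 33 genes differed between them by a median of 0.05, from -0.28 for Abcb10 to 0.49 for Car1.

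The 250 bases before the start of transcription are shown for the 5 members with the widest ranges over the 12 arrays among those with a window. The windows come from RefSeq promoters of build GRCm38.p6, which hold 25 of the 33 members in 30 windows. The 8 others are Nfe2, Lmo2, Ank1, Gypc, Slc4a1, Car1, Car2 and Xpo7. Capitals mark GATAA or its reverse complement TTATC, the core read by GATA factors, and CACCC or GGGTG, the core read by Klf1 and related factors, and no match of the first overlaps one of the second here. Each is written 5′ to 3′ on the strand of its gene, at chr17:40810899-40811148 on the plus strand for Rhag, chr4:134864286-134864535 on the plus strand for Rhd, chr4:46404184-46404433 on the minus strand for Hemgn, chr2:121036878-121037127 on the minus strand for Epb42 and chr6:41704326-41704575 on the minus strand for Kel.
Rhag: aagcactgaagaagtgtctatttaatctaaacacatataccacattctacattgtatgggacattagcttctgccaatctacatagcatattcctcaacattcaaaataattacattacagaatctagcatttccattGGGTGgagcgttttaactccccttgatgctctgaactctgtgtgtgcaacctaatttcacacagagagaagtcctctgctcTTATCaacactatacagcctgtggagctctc
Rhd: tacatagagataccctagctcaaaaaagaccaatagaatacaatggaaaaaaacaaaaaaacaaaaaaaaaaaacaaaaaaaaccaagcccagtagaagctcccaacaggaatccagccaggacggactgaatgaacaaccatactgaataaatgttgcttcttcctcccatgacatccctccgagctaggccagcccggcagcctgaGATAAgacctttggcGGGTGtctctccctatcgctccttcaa
Hemgn: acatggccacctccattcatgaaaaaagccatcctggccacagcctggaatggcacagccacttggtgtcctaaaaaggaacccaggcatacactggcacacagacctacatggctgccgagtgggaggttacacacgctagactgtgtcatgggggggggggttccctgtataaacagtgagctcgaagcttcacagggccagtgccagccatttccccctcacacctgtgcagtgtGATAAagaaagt
Epb42: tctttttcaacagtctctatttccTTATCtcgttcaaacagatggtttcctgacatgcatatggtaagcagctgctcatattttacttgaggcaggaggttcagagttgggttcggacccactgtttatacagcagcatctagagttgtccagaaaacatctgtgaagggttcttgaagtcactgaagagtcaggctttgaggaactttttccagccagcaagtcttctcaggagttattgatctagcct
Kel: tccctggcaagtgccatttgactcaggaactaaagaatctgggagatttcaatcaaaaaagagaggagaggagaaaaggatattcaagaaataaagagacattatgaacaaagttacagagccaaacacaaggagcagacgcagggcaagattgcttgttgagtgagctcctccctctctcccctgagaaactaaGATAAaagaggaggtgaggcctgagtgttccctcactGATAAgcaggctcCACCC

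Rhag, Rhd and Kel held both motifs, with the TTATC of Rhag 31 bases before the start, while Hemgn and Epb42 held GATAA and no CACCC on either strand. GATAA on either strand was found in 14 of the 30 member windows, or 46.7%, against 22.6% of all 32841 windows of the same length. CACCC on either strand was found in 24 of the 30, or 80%, against 52%, and both in 11, or 36.7%, against 10.1%. By gene, 14 of the 25 held GATAA, 20 held CACCC and 2 held neither. A match describes the letters of the window and is not a measured site. Whether these motifs have a part in the values on the arrays was not tested.

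Among the 8 transcription genes, Klf1, the activator of adult globin and many red cell genes, was read at log2 values of 6.38, 6.11, 6.48 and 7.13 on the septic TLR-deficient arrays M5 to M8, 5.55, 7.74, 6.46 and 6.21 on the septic wildtype arrays M9 to M12 and 6.11, 6.33, 6.07 and 5.37 on the untreated arrays M13 to M16. Gata1, the factor without which erythroblasts do not mature, was at 6.18, 5.98, 6.90 and 6.84, then 5.49, 6.38, 6.12 and 5.96, and then 5.85, 6.41, 6.13 and 5.43 in the same order. Both genes were lowest on M16 and next lowest on M9, and the highest Klf1 was on M10, the array that stood apart.

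Gfi1b, a repressor needed for red cells and platelets, was at 6.82, 7.08, 8.01 and 7.68 on the septic TLR-deficient arrays, 6.45, 7.03, 6.98 and 6.52 on the septic wildtype arrays and 6.54, 6.97, 6.55 and 5.99 on the untreated arrays. Hemgn, a nuclear protein of blood progenitors and erythroblasts, was at 7.41, 7.49, 8.67 and 8.17, then 5.06, 7.65, 6.88 and 7.28, and then 6.65, 7.10, 6.69 and 5.82. Its range of 3.61, or 12.2-fold, was the widest among the transcription genes, from 5.06 on M9 to 8.67 on M7, and its septic TLR-deficient values lay above every untreated one.

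Of the other 4 transcription genes, Tal1 and Lmo2, partners of Gata1 in one DNA-bound complex, ranged by 1.19 and 0.97. Zfpm1, the cofactor that binds Gata1, ranged by 1.15, and Nfe2, the subunit of a globin activator shared with megakaryocytes, by 1.74. Lmo2 was highest on M8 and Zfpm1 on M10, while Tal1 and Nfe2 were highest on M7, as were Gata1, Gfi1b and Hemgn.

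Of the receptors, Epor, which carries the signal of erythropoietin, was at 6.35, 7.04, 7.57 and 7.12 on the septic TLR-deficient arrays, 5.58, 7.51, 6.64 and 7.03 on the septic wildtype arrays and 6.74, 6.21, 6.15 and 5.18 on the untreated arrays. It followed the pattern above, lowest on M16 and M9. Tfrc, the transferrin receptor that takes up iron in red cell precursors and in dividing cells at large, was at 9.65, 9.70, 9.75 and 9.76, then 8.69, 8.53, 8.65 and 9.92, and then 9.34, 9.22, 9.43 and 9.38. Tfrc went its own way: M16 was not low, M9 to M11 were the 3 lowest arrays, and the septic TLR-deficient values lay above all untreated ones without overlap.

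In the membrane skeleton, Epb42, which ties the anion exchanger to ankyrin, was at 8.26, 7.40, 7.68 and 7.86 on the septic TLR-deficient arrays, 5.48, 7.79, 7.18 and 8.12 on the septic wildtype arrays and 7.46, 7.13, 7.08 and 4.80 on the untreated arrays. The values on M9 and M16 lay far below the other 10, of which the lowest was 7.08. Ank1, the ankyrin that anchors spectrin to the membrane, was at 6.84, 7.69, 7.88 and 6.92, then 5.60, 7.37, 6.42 and 7.23, and then 6.65, 6.48, 6.44 and 5.69. All 4 septic TLR-deficient values of Ank1 lay above the untreated ones.

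Tmod1, which caps the short actin filaments of the skeleton, was at 7.65, 7.77, 8.49 and 6.83 on the septic TLR-deficient arrays, 5.75, 7.37, 6.07 and 7.49 on the septic wildtype arrays and 6.64, 6.82, 6.79 and 5.88 on the untreated arrays. Its second, dimmer probe set differed in sign between the septic labels, at -0.15 against 1.02 for the one used. Sptb (β-spectrin), Add2 (β-adducin) and Gypc, the glycophorin that links the skeleton to the membrane, ranged by 1.80, 1.43 and 1.57. Sptb and Add2 were lowest on M16, while Gypc was lowest on M9 and at 8.70 on M16, close to 8.66 and 8.72 on M14 and M15.

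The surface proteins spread most. Slc4a1, the anion exchanger that is the main protein of the red cell membrane, was at 9.82, 10.72, 10.76 and 9.48 on the septic TLR-deficient arrays, 7.29, 10.26, 9.35 and 10.28 on the septic wildtype arrays and 9.65, 9.16, 9.37 and 8.02 on the untreated arrays. Rhag, the glycoprotein that carries the Rh complex and passes ammonia, was at 8.64, 9.58, 10.02 and 8.31, then 5.16, 8.63, 7.42 and 8.85, and then 8.39, 8.31, 7.84 and 7.09. Its range of 4.87, or 29.2-fold, from M9 to M7 was the widest of the 33 genes.

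Rhd, the Rh protein assembled with Rhag, was at 7.87, 8.16, 9.16 and 8.79 on the septic TLR-deficient arrays, 5.40, 9.96, 8.25 and 8.48 on the septic wildtype arrays and 7.89, 7.56, 7.14 and 5.38 on the untreated arrays. It was nearly equal on M9 and M16, its lowest arrays, and highest on M10, and its range fell from 4.58 to 3.78 without that array. Kel, the Kell blood group protease, ranged by 3.45 with its lowest value of 4.46 on M9. Aqp1 (the water channel), Tspan33 (a tetraspanin of erythroblasts) and Ermap (the Scianna blood group protein) ranged by 2.80, 2.88 and 2.44. Icam4, an adhesion protein that binds erythroblasts to macrophages, ranged by only 1.40, and by 0.98 without M10.

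Among the enzymes and maturation genes, Trim10, a ubiquitin ligase of terminal red cell differentiation, was at 8.06, 7.82, 8.03 and 7.73 on the septic TLR-deficient arrays, 5.41, 8.02, 7.39 and 7.96 on the septic wildtype arrays and 7.32, 6.85, 6.75 and 5.19 on the untreated arrays. The septic TLR-deficient values lay within 0.33 of each other and above all untreated values. Bpgm, which makes the bisphosphoglycerate that lowers the oxygen affinity of hemoglobin, was at 8.98, 8.74, 9.54 and 10.09, then 9.04, 9.68, 8.89 and 8.71, and then 7.46, 8.92, 8.68 and 7.67. Bpgm departed from the common pattern, since M9 was above its mean and M13 was its lowest array.

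Blvrb, a biliverdin reductase abundant in red cells, was at 8.13, 8.03, 9.44 and 8.82 on the septic TLR-deficient arrays, 7.88, 9.02, 8.78 and 8.45 on the septic wildtype arrays and 7.81, 8.52, 8.14 and 6.86 on the untreated arrays. Car1 and Car2, the carbonic anhydrases that handle carbon dioxide, ranged by 2.13 and 2.43, and Car1 was lowest on M12 rather than on M9 or M16. Abcb10, a mitochondrial transporter needed for hemoglobin, ranged by 2.0, and Tmcc2, a membrane protein with coiled coils, by 2.41. Xpo7, a nuclear export factor of maturing erythroblasts, ranged by 2.13, and Trim58, a ubiquitin ligase that helps nuclei leave, by 1.25.

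**Figure D2:**
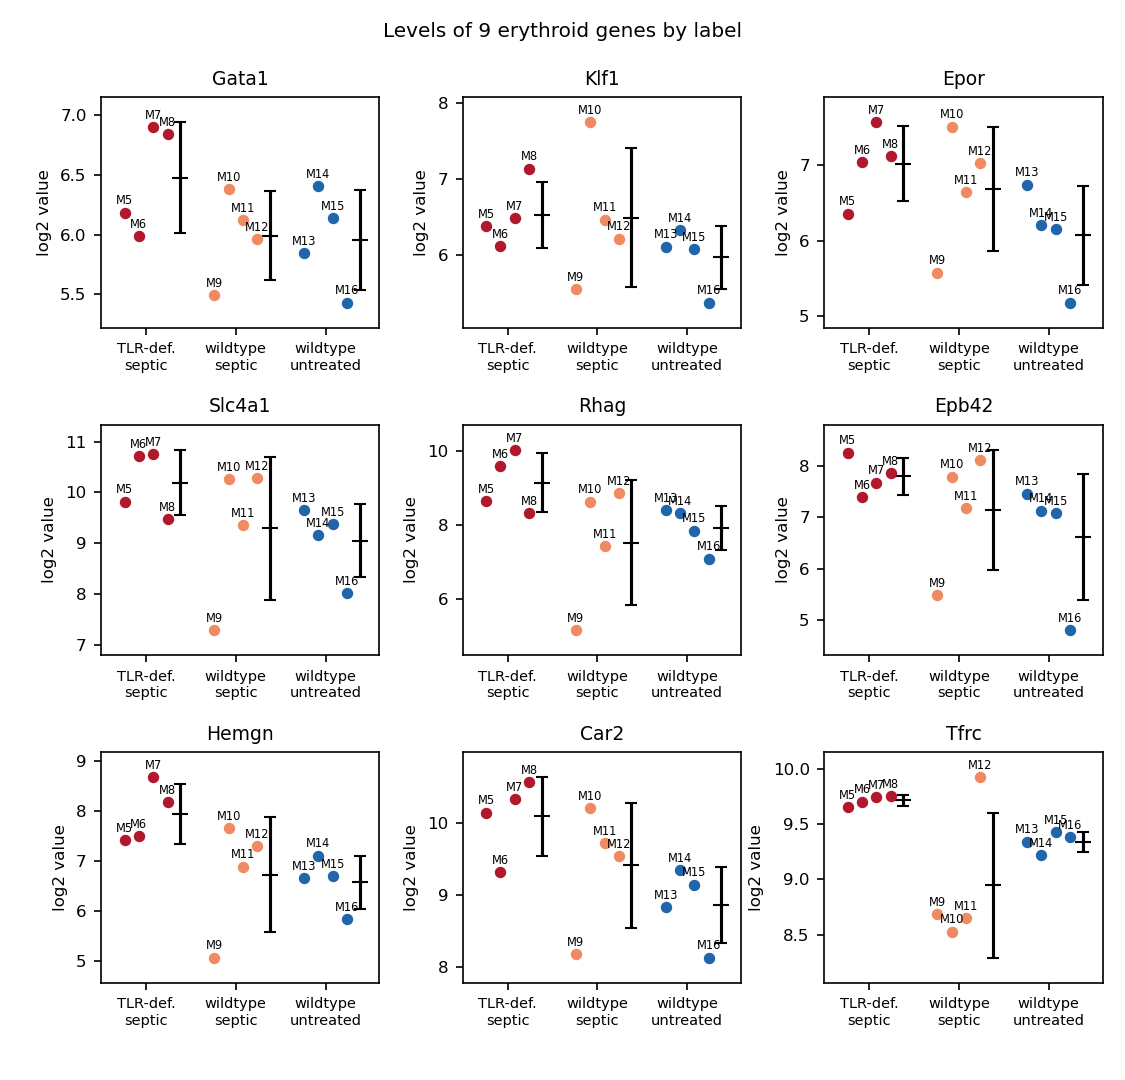
Log2 value on each array (points, with the number in the title) for 9 erythroid genes by label, with the mean and SD of the 4 arrays of a label (bars). In 8 of the panels M9 or M16 is the lowest point, and in the panel of Tfrc it is M10, with M12 far above the other septic wildtype arrays.

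The depth of the drop on M9 differed by role. The median deviation there was -0.44 for the transcription genes, -0.83 for the receptors, -1.06 for the membrane skeleton, -1.81 for the surface proteins and -0.87 for the enzymes and maturation genes. On M16 the same medians were -0.79, -0.68, -1.03, -1.29 and -1.20. The receptor medians join only 2 genes. On M16 Epor was at 5.18 against a mean of 6.59 over the 12 arrays, while Tfrc, at 9.38 against 9.33, did not drop. Surface proteins lay farthest below their means on both arrays.

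The first comparison, septic wildtype against untreated wildtype, sets wildtype spleen after the operation against untreated wildtype spleen. Xist differs between these labels as well: of the septic arrays only M12 has low Xist, and of the untreated arrays only M16 has high Xist. Of the 33 genes, 26 had a higher mean on the septic arrays (55.1% of all genes) and 7 a lower one, with a median difference of 0.23 and a range of -0.39 to 1.03. Over all genes the median was 0.07. In limma 0 members passed an adjusted p of 0.05 (0% of all genes), and 1 was higher at an unadjusted p below 0.05 (2.89% of all genes) with 0 lower (5.92%). In 0 members did the labels not overlap (3.68% of all genes higher, 2.74% lower).

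Rhd had the largest difference upward, from 6.99 ± 1.12 to 8.02 ± 1.91 (SD, n = 4 each), a difference of 1.03 with an SE of 0.79 and an adjusted p of 0.453 in limma. Bpgm followed at 0.90 (SE 0.38, limma adjusted p = 0.439, unadjusted 0.0326), with all 4 septic values above those of M13, M15 and M16 but not all above the 8.92 of M14. Downward, Tfrc differed by -0.39 (SE 0.26, limma adjusted p = 0.439) and Rhag by -0.39 (SE 0.68, limma adjusted p = 0.710). The sign of Tfrc turned to 0.04 after a further quantile normalization, and that of Rhag turned to 0.39 without M9.

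The median of this comparison rested on single arrays: it was 0.58 without M9, 0.02 without M16 and 0.12 without M10, and it was 0.53 after a further quantile normalization. The count at an unadjusted p below 0.05 was 8 without M9 and 0 without M10 (2.49% of all genes higher), M13 or M16. Shares over all genes in the other altered fits are not given. With Xist, above or below 7, as a second term in the fit, tried only after seeing the data, the median was 0.58 and the count 5. The part of Xist in the result was not tested further.

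The second comparison, septic TLR-deficient against septic wildtype, asks what the loss of TLR signalling changes under sepsis. Here 32 of the 33 genes had a higher mean on the septic TLR-deficient arrays (43.9% of all genes) and only Lmo2 a lower one. The median difference was 0.58, or 1.50-fold, against -0.06 over all genes. No member passed an adjusted p of 0.05 in limma (0 of 33, and 0% of all genes), and the lowest adjusted p was 0.590. At an unadjusted p below 0.05, 6 members were higher (4.42% of all genes) and 0 lower (2.22%). In 1 member, Add2, every septic TLR-deficient value lay above every septic wildtype one (2.05% of all genes), and in 0 members below (1.76%). Add2 was dim, with a mean of 5.60 over the 12 arrays.

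Rhag had the largest difference, with means of 9.14 ± 0.80 on the septic TLR-deficient and 7.51 ± 1.69 on the septic wildtype arrays (SD, n = 4 each), which differ by 1.62 (SE 0.68, limma adjusted p = 0.590). Kel came next at 1.28 (SE 0.64, limma adjusted p = 0.590), with the values of M12 (7.91) above all of M5 to M8. Lmo2 differed by -0.16 (SE 0.22, limma adjusted p = 0.694).

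These differences were smaller without M9 or after a further quantile normalization, which gave a median of 0.29. Without M9 the median was 0.27, Rhag differed by 0.84 and Kel by 0.71, 25 genes remained above 0 and 1 passed an unadjusted p of 0.05. That count was also 1 without M7, was 10 without M12 and was 12 without M10, where 3.38% of all genes were higher at that p. For the other altered fits no share over all genes is given. Among the 7 septic arrays with high Xist, which leaves out M12, the median was 0.71. With Xist as a second term in the fit of all 12 arrays it was 0.75, with 17 genes at an unadjusted p below 0.05 and 0 at an adjusted p of 0.05.

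The third comparison, septic TLR-deficient against untreated wildtype, joins genotype and operation, which cannot be told apart without untreated TLR-deficient mice. The level of Xist is nearly joined with them too, being high on all of M5 to M8 but on no untreated array other than M16. This comparison shares its arrays with the other comparisons. Again 32 of 33 genes were higher (51.9% of all genes), all but Zfpm1, with a median difference of 0.80, or 1.74-fold, against 0.01 over all genes. No member passed an adjusted p of 0.05 in limma (0 of 33, and 0% of all genes), where the lowest adjusted p was 0.99996.

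At an unadjusted p below 0.05, 14 members were higher (1.17% of all genes) and 0 lower (0.707%), among them Gfi1b, Hemgn, Epor, Ank1, Aqp1, Car2 and Trim10. In 9 members every septic TLR-deficient array lay above every untreated one (2.40% of all genes), and in 0 members below (0.998%). These were the transcription genes Tal1 and Hemgn, the receptor Tfrc, the skeleton genes Ank1, Sptb, Add2 and Tmod1, the surface gene Icam4 and the ligase Trim10. Add2 and Icam4 were dim, with means of 5.60 and 5.21 over the 12 arrays, whose medians over all genes were 5.57 to 5.74.

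Rhd had the largest difference, with means of 8.50 ± 0.58 and 6.99 ± 1.12 (SD, n = 4 each), which differ by 1.50 (SE 0.79, limma adjusted p = 0.99996). Trim10 followed at 1.38 (SE 0.54, limma adjusted p = 0.99996), from 6.53 ± 0.93 to 7.91 ± 0.16 (SD, n = 4 each). Zfpm1 differed by -0.06 (SE 0.29, limma adjusted p = 0.99996), a value whose sign turned after a further quantile normalization, with Xist in the fit and without M5, M6, M14 or M15.

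The median stayed above 0 whichever array was left out, from 0.55 without M16 to 0.99 without M5, and 31 to 33 genes had a higher mean. The count at an unadjusted p below 0.05 was 3 without M16, 4 without M7, 21 without M9 and 17 without M10 (3.25% of all genes higher). Again no share over all genes is given for the other altered fits. M9 and M10 are septic wildtype arrays, which enter this comparison only through the shared estimate of the spread. With Xist as a second term the median was 1.25, 33 genes were higher and 24 passed an unadjusted p of 0.05, and in that fit M16 is the only untreated array with high Xist.

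**Figure D3:**
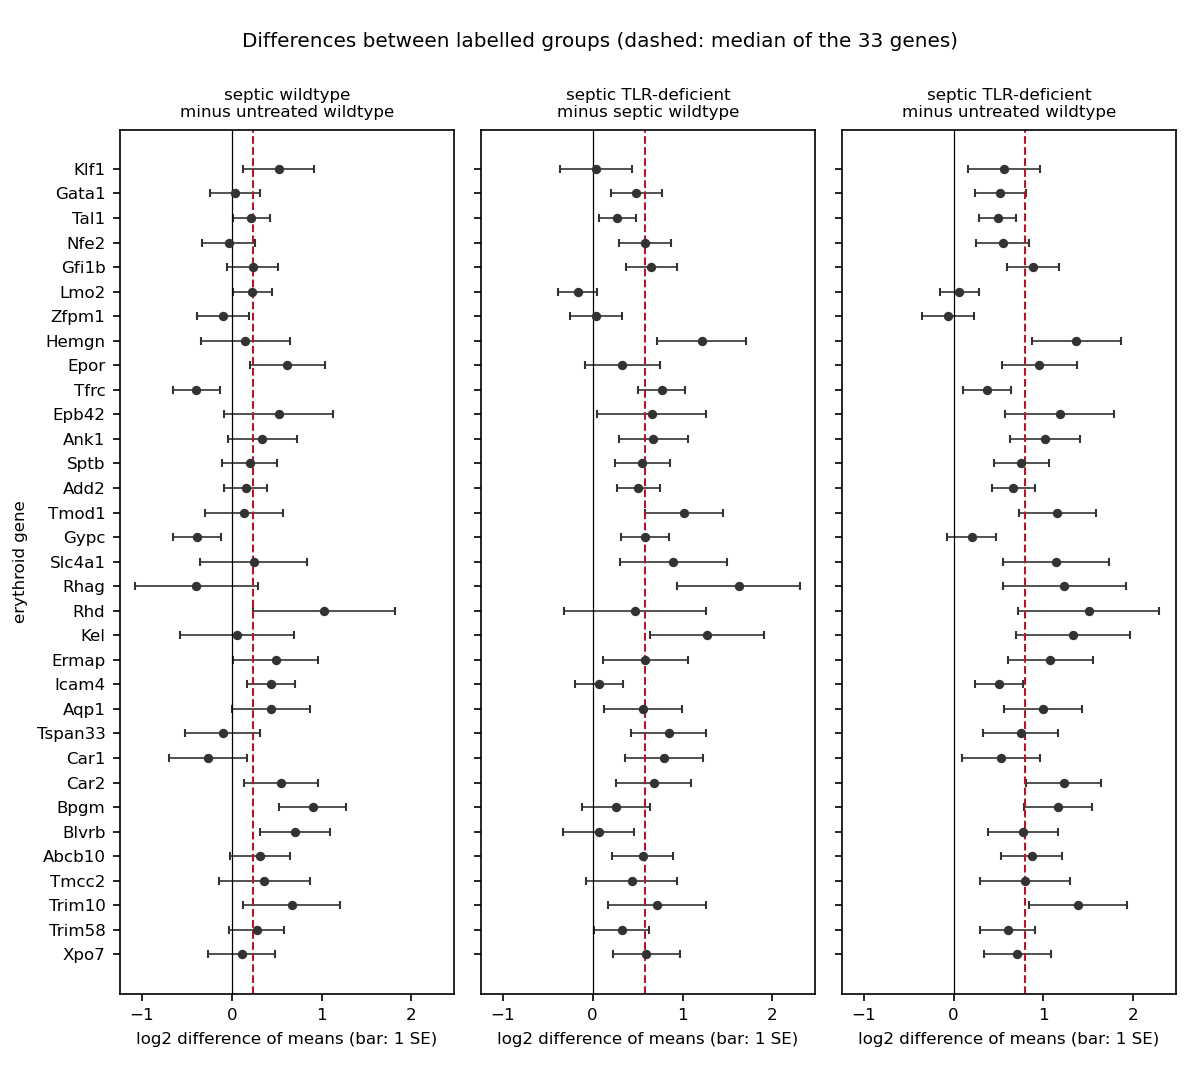
Difference of label means in log2 (points, with a bar of 1 SE from limma) for each of the 33 erythroid genes in the 3 comparisons, with the median of the 33 as a dashed line. The median moves from 0.23 to 0.58 and 0.80 from left to right, and the values of the first panel lie on both sides of 0.

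By role, the difference between septic TLR-deficient and untreated arrays had medians of 0.53 for the 8 transcription genes, 0.66 for the 2 receptors, 0.89 for the 6 skeleton genes, 1.11 for the 8 surface genes and 0.80 for the 9 enzymes and maturation genes. Between the septic labels the medians were 0.38, 0.55, 0.62, 0.71 and 0.56 in the same order. Surface genes had the largest median and transcription genes the smallest in both. Between septic wildtype and untreated arrays the medians were 0.18, 0.11, 0.18, 0.34 and 0.36, with the enzymes and maturation genes largest and the receptors smallest.

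For every one of the 33 genes the widest range inside a label exceeded the largest difference between label means, as it did for 99.6% of all genes. The widest range had a median of 1.76 over the 33 genes and the largest difference a median of 0.85, against 1.22 and 0.39 over all genes. Ranges inside the septic TLR-deficient, septic wildtype and untreated labels had medians of 1.03, 1.74 and 1.11 over the members, and of 0.50, 1.13 and 0.40 over all genes.

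The title numbers were also read in 3 runs that cross the labels, M5 to M7 with M16, M8 to M11, and M12 to M15, a division proposed with results of these data known and carrying no condition. The run M12 to M15 is also the set of arrays with low Xist. The median range over the 33 genes was 2.01 in the first run, 1.60 in the second and 0.72 in the third, and over all genes it was 0.48, 1.11 and 0.38. For 29 of the 33 genes the range was narrowest in M12 to M15, the run that also had the smallest median range over all genes. The share of all genes narrowest there was not counted, and M8 to M11 include M10, the array that stood apart. Each of the other runs held high and low erythroid arrays, M7 with M16 and M8 or M10 with M9. Lmo2 was the 1 gene that set a run apart from the remaining arrays, being lower on M5 to M7 and M16 than on all others (1 of 33, and 1.85% of all genes). In 0 of the 33 did M5 to M7 with M16 lie above all others (1.72% of all genes), M8 to M11 above (1.18%) or below (2.12%), or M12 to M15 above (0.757%) or below (0.818%).

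Genes of the same pathway that are not among the 33 were read from lists of erythroid and other genes. The 10 measured genes of heme synthesis and iron import had a median deviation of 0.80 on M7, -0.56 on M9 and -1.0 on M16, high and low on the same arrays as the members. All 10 had a higher mean on septic TLR-deficient than on untreated arrays, with a median of 0.48, 4 of them at an unadjusted p below 0.05 and 0 at an adjusted p of 0.05 in limma. Alas2, the first enzyme of heme synthesis in red cells, ranged from 8.45 on M16 to 10.82 on M8, and Uros, a later enzyme of the path, from 5.66 on M16 to 7.93 on M10.

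Of 16 other erythroid membrane and maturation genes, 14 were higher in the same comparison, with a median of 0.55 and 4 at an unadjusted p below 0.05. Cldn13, a claudin of erythroblasts, was lowest on M16 at 5.32 and on M9 at 5.90 and highest on M7 at 9.06. Slc2a1, a glucose transporter of many cells, was lowest on M10 at 6.53 and at 9.23 on M16. Of 9 globins listed, 3 had a probe set of their own, among them the embryonic Hbb-bh1 and Hba-x. Their median deviation lay between -0.31 and 0.94, highest on M10. Their mean level was only 3.81 to 4.97 over the arrays, whose medians over all genes were 5.57 to 5.74. These dim values say little about the globins as a whole.

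A further 16 transcription factors and cofactors of red cells, many of them used by other cells too, had a median deviation of 0.05 on M9, -0.02 on M7 and -0.32 on M16. Of these, 3 of 16 were higher on septic TLR-deficient than on untreated arrays, with a median of -0.21. E2f2, a cell cycle factor of erythroblasts, was highest on M7 at 8.18 and lowest on M16 at 5.71, while Kdm1a, a histone demethylase that works with Gfi1b, was lowest on M10 at 6.19.

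Cell division genes moved with the members on some arrays. The 14 measured had a median deviation of 1.04 on M7 and -0.67 on M9, but -0.32 on M16. All 14 had a higher mean on septic TLR-deficient than on septic wildtype arrays, with a median of 0.74 and 10 at an unadjusted p below 0.05, and all 14 than on untreated arrays, with 0.78 and 8. At an adjusted p of 0.05 in limma 0 passed. Birc5 and Cdk1, which act in mitosis, were highest on M7 at 8.18 and 8.66 and lowest on M9 at 5.32 and 5.89. Their part in the values of the erythroid genes was not tested.

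Megakaryocytes share Gata1, Gfi1b, Tal1, Nfe2, Zfpm1 and Lmo2 with red cells. The 8 measured genes of megakaryocytes and platelets had a median deviation of -0.11 on M7, 0.12 on M9 and -0.48 on M16, and 4 of 8 were higher on septic TLR-deficient than on untreated arrays, with a median of -0.02. Their mean level ran from 6.70 to 7.45, 6.96 to 7.52 and 6.64 to 7.39 over the arrays of the septic TLR-deficient, septic wildtype and untreated labels. Ppbp, a platelet chemokine, was at 10.86 on M9 and 10.04 on M7, the reverse of the order of the erythroid genes on these arrays.

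Other cell types did not share a single pattern on the erythroid-low arrays. B and T cell genes went opposite ways there, while neutrophil genes were low on both. Median deviations on M9 and M16 were 0.70 and -0.69 for 4 B cell genes, 0.63 and -0.64 for 4 T cell genes, 0.51 and -0.04 for 6 genes of red pulp macrophages, and -0.71 and -1.08 for 6 neutrophil genes. On M7 the B cell genes stood at -0.65 and the neutrophil genes at 1.06. On M7, M9 and M16 the neutrophil genes thus lay on the same side of their means as the members. Endothelial genes stood at 0.33 and 0.13 on M9 and M16, early progenitor genes at 0.07 and 0.07, and genes of basophils, mast cells and eosinophils at 0.01 and -0.38. The part of these cell types in the erythroid values was not tested.

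**Figure D4:**
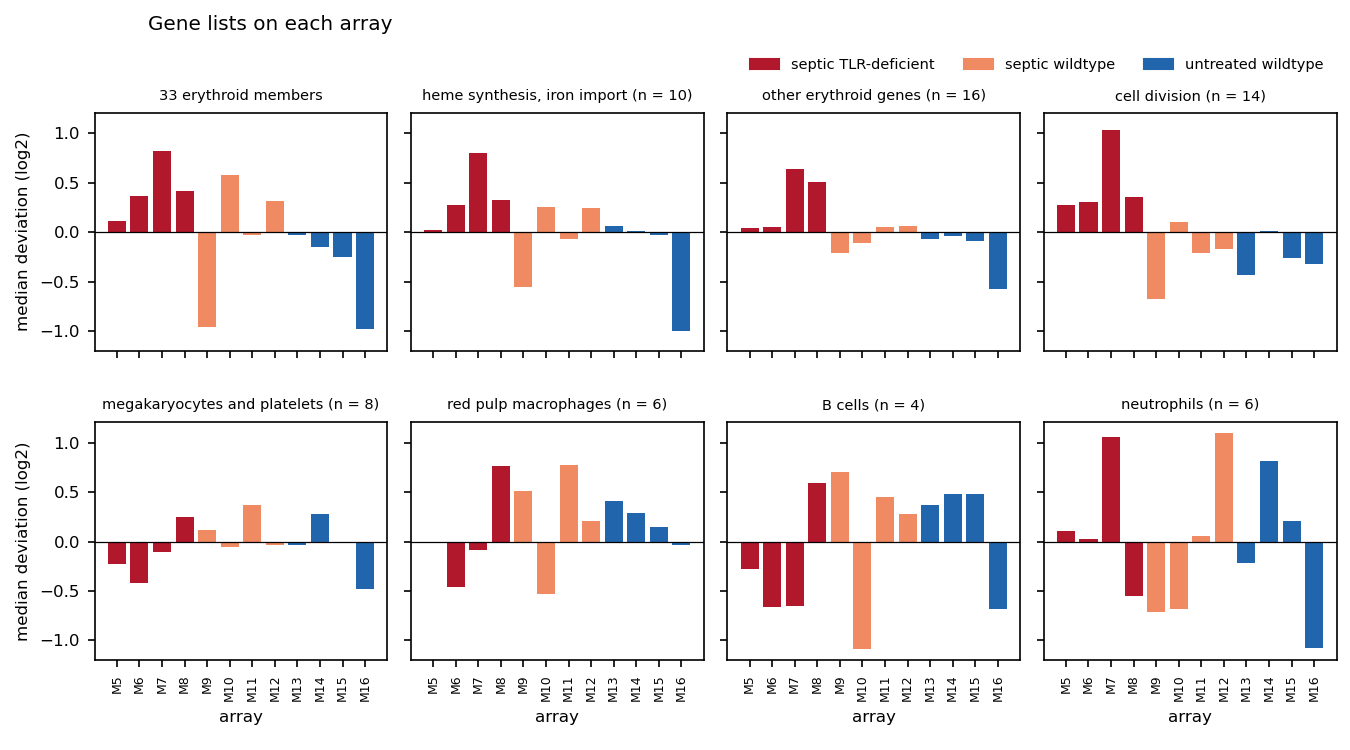
Median deviation of the genes of a list from their own means (bars from 0, log2), on each array by the number in the title, coloured by label, for the 33 erythroid genes and 7 other lists with n genes each. Heme synthesis and neutrophil genes follow the erythroid genes down on M9 and M16, while the B cell bars of these arrays point in opposite directions.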

How the data were processed

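Total RNA of mouse spleen was amplified as cDNA, labelled with biotin and read on Affymetrix arrays, per the labels' protocols. The authors deposited 1 log2 value per probe set and array, made with RMA in Affymetrix Expression Console per the submitters' processing notes, with versions not given in the sources used here. RMA usually includes a step that makes the distributions of the arrays alike, yet the deposited values of M10 have a narrower spread than those of the other arrays, so a further quantile normalization was one of the alternatives. No scan date is given in the sources used here. Of 35557 probe sets, 21789 carry 1 gene symbol in the platform annotation, 1621 several and 12147 none. Per gene the probe set with 1 symbol and the highest mean was used, with no filter on dim genes, which gave 19938 genes.

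Labels gave the 3 groups of 4 arrays. All genes were fitted with limma 3.58.1 in R 4.3.3, with 1 mean per group over 12 arrays and two-sided moderated tests. The p-values were adjusted by Benjamini-Hochberg over the whole table, with a threshold of 0.05. The fit was also run on simulated data, with noise independent between genes and SDs capped below those of some members. Such data cannot show how the threshold behaves for genes that move together or with an array that stands apart. The members, the gene lists and the runs of title numbers were chosen with earlier results of these data known, so no list was tested and no p was adjusted over a list. Values on every array are given for the 3 genes per role with the widest range and for Gata1, Klf1, Epor, Tfrc and Slc4a1, and full statistics for the largest differences, at most 2 per direction and comparison. From each other list the widest ranges were named. The alternatives were that normalization, centring, filters on dim genes at percentiles 25 and 50, averaging the probe sets of a gene, only the groups compared, the replicate number as a block and leaving out each array. A fit with Xist as a covariate was chosen after seeing the data. Promoter windows are those of RefSeq on GRCm38.p6. No sample was moved to another group, although some arrays were most like arrays of another label. Figures were drawn with matplotlib 3.10.9.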

Additional observations from a re-analysis of the deposited data

Results flagged for a closer look

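In each label each of the 33 genes was checked for 1 array far from the other 3, and 5 of 99 such sets had one, where chance gives about 1 in 20. On M7 (septic TLR-deficient replicate 3) Nfe2 was at 6.42, above 5.73 to 5.81 on the other arrays of that label. On M8 (septic TLR-deficient replicate 4) Tmcc2 was at 6.16, below 7.19 to 7.30. Tfrc was at 9.92 on M12 (septic wildtype replicate 4), above 8.53 to 8.69, and M12 is the array of that label with low Xist. On M16 (untreated replicate 4) Epb42 was at 4.80, below 7.08 to 7.46, and M16 is the untreated array with high Xist. Gypc was at 8.13 on M13 (untreated replicate 1), below 8.66 to 8.72.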

How the results depend on the processing

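The count of members called was 0 in all 3 comparisons under each of 8 alternatives and each of 12 left-out arrays. Their median kept its sign throughout. Under the alternatives it ran from 0.23 to 0.58 for septic wildtype minus untreated, 0.29 to 0.75 for septic TLR-deficient minus septic wildtype and 0.77 to 1.25 for septic TLR-deficient minus untreated. With 1 array left out it ran from 0.02 to 0.58, 0.27 to 0.71 and 0.55 to 0.99. A filter at the 50th percentile kept 29 of the members and dropped the dim Nfe2, Add2, Icam4 and Trim58. Signs turned for 3 of the genes named. Tfrc (septic wildtype minus untreated) was 0.036 after a further quantile normalization. Rhag in the same comparison was 0.33 with Xist in the fit and 0.39 without M9, in a range of -0.84 to 0.39 over the left-out arrays. Zfpm1 (septic TLR-deficient minus untreated) was 0.010 after quantile normalization and 0.059 with Xist in the fit, was above 0 without M5, M6, M14 or M15, and ran from -0.22 to 0.092 over the left-out arrays. The cause was not tested. The counts at an unadjusted p below 0.05, which are 1, 6 and 14 in the order above, were 3, 1 and 5 after quantile normalization and with only the groups compared 2 for septic TLR-deficient minus septic wildtype and 22 for septic TLR-deficient minus untreated. Deviations from the label means correlated at -0.54 to 0.14 between arrays with the same replicate number. This cannot show whether the number stands for a shared step, which the labels used here do not say. With the replicate number as a block the medians were 0.23, 0.58 and 0.80 and these counts 1, 7 and 13. Shares of all genes at an unadjusted p below 0.05 are given only for the main fit and without M10. The counts of the other fits therefore cannot tell a change in the members from one in the whole table. With 4 arrays a label, precision is limited by their number.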
